A study of Mus musculus with 4 samples.

Results

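Respiratory complex I, or NADH:ubiquinone oxidoreductase, is the entry point of the mitochondrial electron transport chain. Its peripheral arm stands in the matrix, takes electrons from NADH through a flavin and passes them along a row of iron-sulfur clusters to ubiquinone, and its membrane arm pumps protons. The core subunits of the peripheral arm and all accessory subunits are encoded in the nucleus, translated on cytosolic ribosomes and imported, while the proton-pumping core of the membrane arm is encoded in mitochondrial DNA. Assembly factors help to join the modules and are not part of the finished enzyme.

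The genes described here are those whose symbol starts with Nduf, then a, b, c, s, v or af, then a number, in the annotation of the array platform. There were 38 such genes among 12393 named genes, covered by 71 probe sets, and 19 of the 38 had more than 1 probe set. They comprised 6 core subunits of the peripheral arm, 8 accessory subunits of that arm, 18 accessory subunits of the membrane arm, 5 assembly factors and Ndufa4, a protein first counted with complex I and since assigned to cytochrome c oxidase. For each gene the brightest probe set, by its average across the 4 arrays, was used. All 38 passed the filter on low values, a level of at least 7.53 on the log2 scale on at least 1 array, as did 7179 named genes in all. A further 7 probe sets are listed under a complex I symbol together with others and were not assigned to a gene. Of these, that for Ndufs6 and Ndufs6b was at 0.54 and 0.35 between the Npm1+/- and Npm1+/+ labels in total and polysome RNA (log2 differences), and that for Ndufa11 and Ndufa11b at 0.49 and 0.32. The mitochondrially encoded subunits are not analysed here.

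The cells were embryonic fibroblasts, which are cultured from the connective tissue of mouse embryos, of a strain labelled C57/BJ6. There were 4 arrays, 1 per group: ribosome-bound (polysome) RNA labelled Npm1+/-, polysome RNA labelled Npm1+/+, total RNA labelled Npm1+/- and total RNA labelled Npm1+/+. Polysome RNA came from fractions of a sucrose gradient. Npm1 encodes nucleophosmin, an abundant nucleolar protein, and the study concerns changes in translation when it is deleted. The sources used here do not give the number of embryos or cultures per array. Every value below is a single measurement with no replicate error, and no p-value can be computed. In such bulk samples, fewer cells of a type and less RNA per cell cannot be told apart.

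Npm1 itself was not lower under the Npm1+/- label by more than the spread between probe sets. One probe set gave 11.96 against 11.91 in total RNA, Npm1+/- label first, and 12.84 against 12.93 in polysome RNA, and the other differed by 0.07 and 0.06. Directions are therefore stated between libraries by their label and not taken as established for the genotypes. The array medians over all probe sets lay between 7.47 and 7.59. All 10 fibroblast markers passed the filter, with a median level of 12.8 to 13.1 on the 4 arrays. Of 8 markers of brown fat and muscle, tissues rich in mitochondria, 1 (Acta1) passed. As a measure of technical spread, the differences given by the brightest and the next probe set of a gene disagreed with an SD of 0.32 between genotype labels for total RNA, and 0.28 for polysome RNA, over 2700 genes. Over the 19 complex I genes with more than 1 probe set these SDs were 0.20 and 0.12.

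Most complex I genes read modestly higher in the total library labelled Npm1+/-, and 1 core subunit gene, Ndufs1, read far lower. Of the 38 genes, 35 were above 0, against 66.1% of all genes kept, and 28 were above the median gene. The median difference was 0.35 on the log2 scale, against 0.19 for all genes kept. By the size rule of 1.5-fold, which is 0.58 on the log2 scale, 3 complex I genes were higher (background 7.42%) and 1 was lower (background 6.23%). At a lower limit of 0.32 on the log2 scale, 20 were higher (background 34.3%) and 2 lower (background 14.2%). Ndufs1, Ndufc1 and Ndufb1 were the 3 genes below 0. Centring the arrays, here and below, used the median of the genes kept on each array. In the total libraries these were 9.32 and 9.20, Npm1+/- label first, while the medians over all probe sets were both 7.47. The centring brought the median difference of all genes kept to 0.07. Above the median gene were 26 of 38 complex I genes after quantile normalisation. Complex I genes are bright on these arrays, with a median mean level of 11.2 against 9.30 for all genes kept, and after subtraction of the trend of the difference on level the median was 0.16, with 27 of 38 above 0 and 25 above the median gene. Macrophage markers were also higher in the total library labelled Npm1+/- (14 of 14 above 0, summed linear level 1663 against 1373). Of these, 9 passed the filter, some only in polysome RNA, such as C1qa (6.60 against 6.35 in total RNA). Some differences were near 0 (Adgre1 0.01, Laptm5 0.06). Of 10 fibroblast markers, 2 were above 0 (summed 72706 against 86046). The part of either cell type in the complex I values was not tested.

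**Figure D1:**
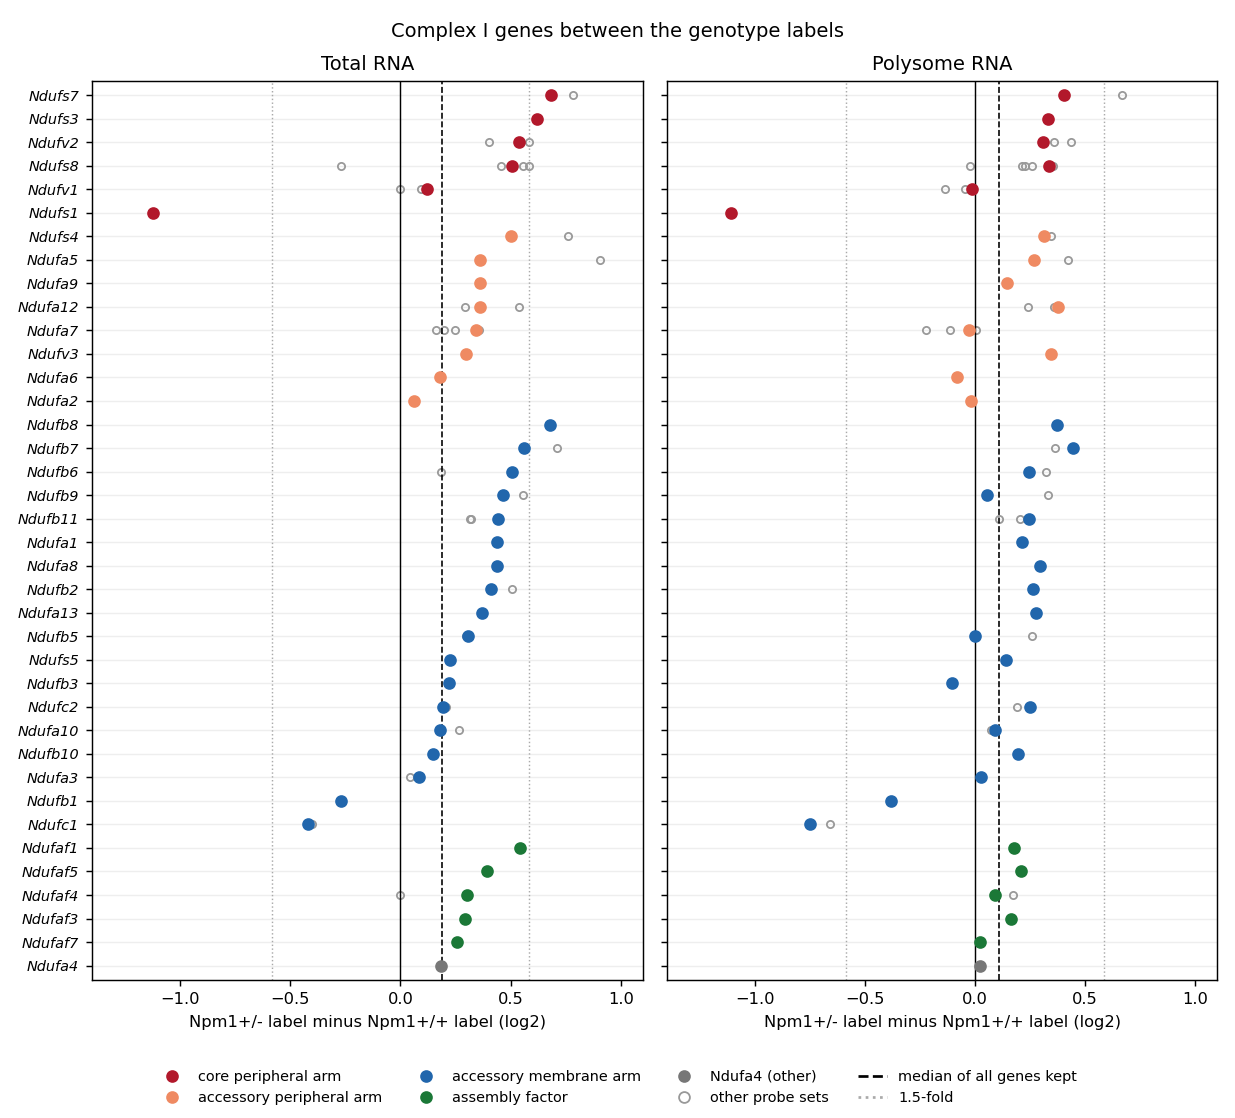
Difference between the libraries labelled Npm1+/- and Npm1+/+ (log2, x axis) for each of the 38 complex I genes, in total RNA (left) and polysome RNA (right). Filled points are the chosen probe sets coloured by role, open points the other probe sets that passed the filter, dashed lines the median of all genes kept and dotted lines 1.5-fold either way. Points lie mostly right of 0 in total RNA, and Ndufs1 lies at -1.13 and -1.11.

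Among the core subunits of the peripheral arm, 5 of 6 were above 0 in total RNA (background 66.1%) and 4 above the median gene. Their median was 0.52, and this group held 2 of the 3 genes past 1.5-fold higher and the 1 past it lower. Ndufs7 carries the last iron-sulfur cluster before ubiquinone. It read 10.83 in total RNA under the Npm1+/- label and 10.14 under the Npm1+/+ label, and 10.82 against 10.41 in the polysome libraries, so the Npm1+/- label was higher in both kinds of RNA. The differences were 0.69 (1.61-fold) and 0.41 (1.32-fold), and its other probe set gave 0.78 and 0.66.

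Ndufs3, a core subunit at the quinone-binding module, read 11.66 against 11.04 in total RNA and 11.70 against 11.37 in polysome RNA, Npm1+/- label first. The differences were 0.62 (1.54-fold) and 0.33 (1.26-fold). Like Ndufs7, it was higher under the Npm1+/- label in both kinds of RNA, and by less in polysome RNA.

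Ndufs8, another iron-sulfur subunit of the quinone module, read 11.96 under the Npm1+/- label and 11.45 under the Npm1+/+ label in total RNA, and 12.18 against 11.84 in polysome RNA (differences 0.51 and 0.34). It had 6 probe sets. In total RNA 5 of them gave 0.45 to 0.58, while the dimmest gave -0.27. Among probe sets above the filter this was the widest disagreement within a complex I gene. Ndufv2, an iron-sulfur subunit of the NADH-oxidising module, read 11.87 against 11.34 and 11.78 against 11.48 (differences 0.54 and 0.31), and its other probe sets gave 0.40 and 0.58 in total RNA. Ndufv1, which binds NADH and the flavin, barely differed, with 10.41 against 10.29 in total RNA and 10.50 against 10.52 in polysome RNA. Its differences of 0.12 and -0.02 were smaller than the SD between probe sets.

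Ndufs1 was the exception. It encodes the largest subunit of the peripheral arm, which carries iron-sulfur clusters of the NADH-oxidising module beside Ndufv1 and Ndufv2. It read 8.52 in total RNA under the Npm1+/- label and 9.65 under the Npm1+/+ label, and 8.70 against 9.80 in the polysome libraries. Both libraries labelled Npm1+/- lay below both labelled Npm1+/+. The differences were -1.13 (2.18-fold lower) and -1.11 (2.15-fold lower), and only 65 and 55 of the 7179 genes kept were lower still. Ndufs1 was the 1 complex I gene past 2-fold between genotype labels, where the background lower was 1.49% in total and 1.17% in polysome RNA. It rests on 1 probe set, so no second probe set was available to compare.

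**Figure D2:**
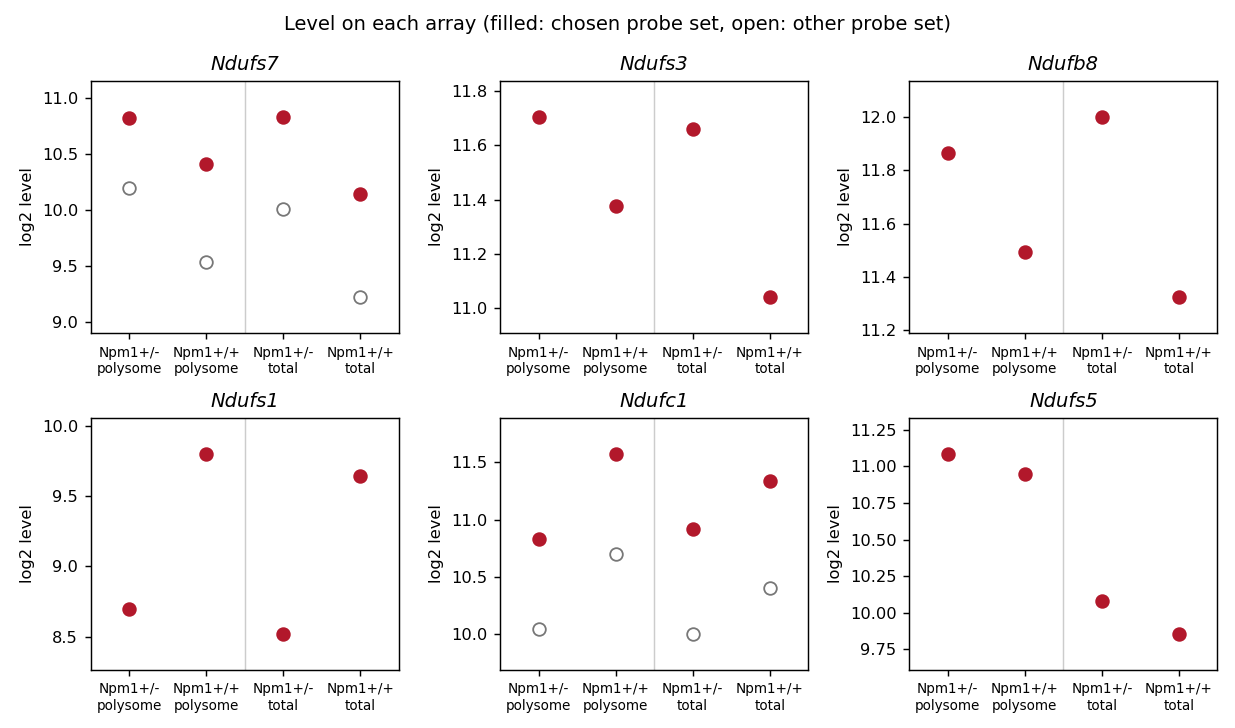
Log2 level of 6 complex I genes on each of the 4 arrays (x axis), those past 1.5-fold in any comparison; each panel has its own y axis. Filled points are the chosen probe set and open points other probe sets. Ndufs7, Ndufs3 and Ndufb8 read higher and Ndufs1 and Ndufc1 lower under the Npm1+/- label in both kinds of RNA, and Ndufs5 read about 1 unit higher in both polysome libraries.

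Accessory subunits of the peripheral arm surround this core and stabilise it. All 8 measured were above 0 in total RNA (background 66.1%), between 0.06 (Ndufa2) and 0.50 (Ndufs4), with a median of 0.35 and none past 1.5-fold. Of the 8, 6 were above the median gene. Ndufs4 is needed late in assembly of the NADH-oxidising module, and its loss is a known cause of Leigh-like disease in mice. It read 10.43 under the Npm1+/- label and 9.92 under the Npm1+/+ label in total RNA, and 10.37 against 10.06 in polysome RNA, and its second probe set above the filter gave 0.76 and 0.34. Ndufa5 read 9.96 against 9.60 and 10.10 against 9.83, differences of 0.36 and 0.27, and its second probe set gave 0.91 and 0.42. For both genes the probe sets gave the same direction but sizes that differed by more than 0.2 in total RNA. Ndufa12 read 11.54 against 11.18 in total RNA and 11.49 against 11.12 in polysome RNA (0.36 and 0.37), Npm1+/- label first. Ndufv3, in the NADH-oxidising module, read 11.72 against 11.43 and 11.74 against 11.40 (0.30 and 0.35). At these probe sets the difference was at least as large in polysome RNA, but the other Ndufa12 probe sets above the filter gave 0.54 and 0.29 in total RNA and less, 0.36 and 0.24, in polysome RNA.

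In the remaining peripheral accessory genes with values on each array the polysome difference was at or just below 0. Ndufa7 read 12.10 under the Npm1+/- label and 11.75 under the Npm1+/+ label in total RNA, and 12.04 against 12.07 in polysome RNA (0.34 and -0.03). It had 5 probe sets, all above 0 in total RNA and 4 of them below 0 in polysome RNA. Ndufa6, a protein of the LYR-motif family, read 10.49 against 10.31 and 10.57 against 10.65 (0.18 and -0.08). Ndufa2 read 10.91 against 10.84 and 11.07 against 11.08, near 0 in both kinds of RNA (0.06 and -0.02).

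Accessory subunits of the membrane arm clasp the proton-pumping core. Of 18 measured, 16 were above 0 in total RNA (background 66.1%) and 13 above the median gene, with a median of 0.34. Ndufb8 read 12.00 in the total library labelled Npm1+/- and 11.32 in that labelled Npm1+/+, and 11.87 against 11.49 in the polysome libraries (0.68, 1.60-fold, and 0.37, 1.29-fold). Ndufb7, on the intermembrane-space face, read 12.06 against 11.50 and 12.21 against 11.76 (0.56 and 0.45), with 0.71 and 0.36 at its second probe set. Both were higher under the Npm1+/- label in both kinds of RNA. Ndufb9, another LYR-motif protein, read 11.89 against 11.42 in total RNA and 11.79 against 11.73 in polysome RNA (0.47 and 0.05). Its second probe set above the filter gave 0.56 and 0.33, so the small polysome difference was not shared by both. Another, below the filter on all arrays, gave -0.31 in total RNA. Ndufb5 read 10.84 against 10.53 and 10.87 against 10.87 (0.31 and -0.0013), and its second probe set gave 0.30 and 0.26, again a disagreement in polysome RNA.

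Ndufc1, a small single-pass accessory subunit of the membrane arm, read lower under the Npm1+/- label. Its values were 10.92 against 11.34 in total RNA and 10.83 against 11.58 in polysome RNA. The differences were -0.42 (1.34-fold lower) and -0.75 (1.68-fold lower), and its second probe set gave -0.40 and -0.66. Both libraries labelled Npm1+/- again lay below both labelled Npm1+/+ at each probe set. Ndufb1 was the third gene below 0, at -0.27 and -0.38. Its probe set reached the filter only in the libraries labelled Npm1+/+ (7.62 and 7.59, against 7.35 and 7.21), so its size is uncertain.

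The 5 measured assembly factors were all above 0 in total RNA (background 66.1%) and above the median gene. They lay in a narrow band between 0.26 and 0.54 (median 0.30). Ndufaf1, part of the complex that assembles the membrane arm, read 8.92 in the total library labelled Npm1+/- and 8.38 in that labelled Npm1+/+, and 8.93 against 8.75 in the polysome libraries (0.54 and 0.18). Ndufaf5, which hydroxylates an arginine of the Ndufs7 protein, read 8.31 against 7.92 and 8.31 against 8.10 (0.39 and 0.21). Both were higher under the Npm1+/- label, by less in polysome RNA.

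Ndufaf3 and Ndufaf4 are partners in assembly of the early quinone module. Ndufaf4 read 9.38 under the Npm1+/- label and 9.08 under the Npm1+/+ label in total RNA, and 9.28 against 9.19 in polysome RNA (0.30 and 0.09). A dimmer second probe set read the same in both total libraries (7.70) and gave 0.17 in polysome RNA, so the total RNA difference was not shared. Ndufaf3 read 8.69 against 8.39 and 8.39 against 8.22 (0.29 and 0.17). Ndufaf7, a mitochondrial methyltransferase, read 7.97 against 7.72 and 8.0 against 7.98 (0.26 and 0.02), levels near the filter. Ndufa4, the cytochrome oxidase protein that shares the name, read 11.81 against 11.62 and 11.75 against 11.73 (0.18 and 0.02), beside the median gene in total RNA.

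In polysome RNA the shift between genotype labels was smaller. Of the 38 genes 29 were above 0 (background 62.9%), and the median was 0.19 against 0.11 for all genes kept (0.09 against 0.01 after subtraction of the level trend). None was past 1.5-fold higher (background 2.08%), and 2, Ndufs1 and Ndufc1, were past 1.5-fold lower (background 5.86%). Past 0.32 on the log2 scale, 7 were higher (background 19.4%) and 3 lower (background 13.3%), so the higher share was close to its background. Across the 2 kinds of RNA 29 genes were above 0 in both and 3 below 0 in both, and 6 had opposite signs, all with a polysome difference between -0.10 and 0. Across the 38 genes the differences in the 2 kinds of RNA, which share no array, had Pearson r = 0.93 and Spearman rho = 0.76, and 0.80 and 0.72 without Ndufs1 and Ndufc1. These describe genes, which are not independent replicates, and over all genes kept r was 0.91.

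**Figure D3:**
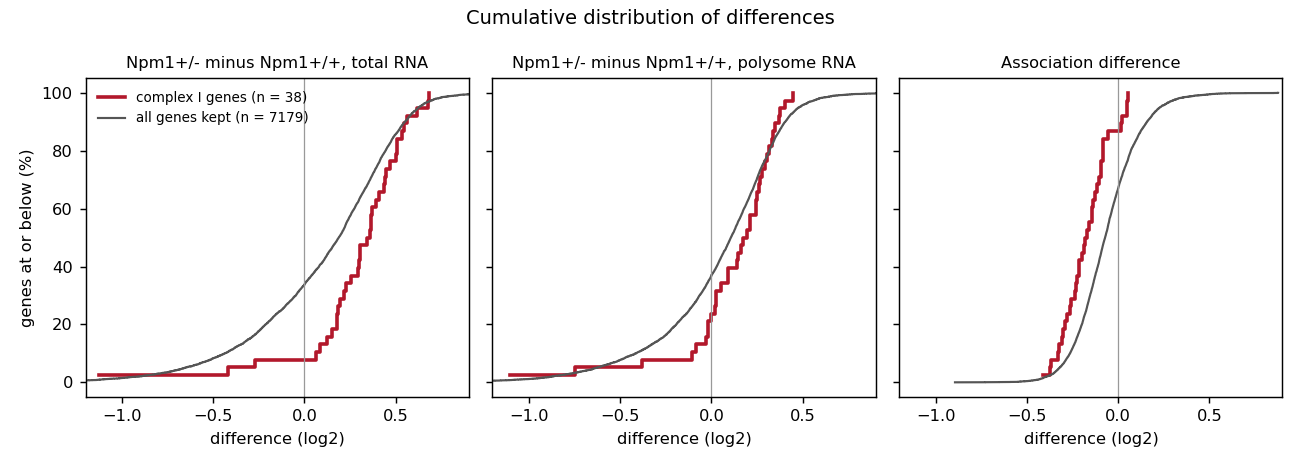
Share of genes (%, y axis) at or below each log2 difference (x axis) for the 38 complex I genes and the 7179 genes kept, for the genotype-label difference in total RNA, in polysome RNA, and for the association difference (polysome minus total, Npm1+/- label minus Npm1+/+ label). The complex I curve lies to the right over most of its range in total RNA, with medians of 0.35 against 0.19, and to the left in the association difference, with medians of -0.18 against -0.07.

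The 3 genes past 1.5-fold higher in total RNA lie close to the limit. With arrays centred on their medians Ndufs7, Ndufb8 and Ndufs3 were at 0.56, 0.55 and 0.50, and after the level trend was subtracted at 0.46, 0.47 and 0.40, all short of 1.5-fold but still above 0. Ndufs1 lay between -1.30 and -1.13 in total RNA under the alternatives tried.

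Polysome and total RNA of the same label were compared next, which by the labels concerns how much of each mRNA was on ribosomes. Under the Npm1+/- label complex I genes had a median difference near 0 between the fractions. It was -0.0075 against 0.07 for all genes kept, 16 of 38 were above 0 (background 65.1%), and 10 were above the median gene. Under the Npm1+/+ label the median was 0.19 against 0.14, with 33 of 38 above 0 (background 75.6%) and 24 above the median gene. Past 0.32 on the log2 scale, 6 were higher there (background 19.2%). Under each label 1 gene, Ndufs5, was past 1.5-fold higher in polysome RNA (backgrounds 2.24% and 3.65%), and none was past 1.5-fold lower (backgrounds 1.35% and 1.56%). Centring the arrays on their medians moved the median of all genes kept under the Npm1+/+ label to 0.01, and that of complex I genes then was 0.055.

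Ndufs5 encodes an accessory subunit on the intermembrane-space side of the membrane arm. It read 11.09 in the polysome library and 10.08 in the total library labelled Npm1+/-, and 10.95 against 9.86 under the Npm1+/+ label. Both polysome libraries lay above both total libraries, by 1.00 (2.0-fold) and 1.09 (2.13-fold), and 28 and 31 of the 7179 genes kept had a larger difference. At the chosen probe sets no other complex I gene exceeded 0.22 under the Npm1+/- label or 0.39 under the Npm1+/+ label. Other probe sets above the filter reached 0.29 (Ndufv1) under the Npm1+/- label and 0.54 (Ndufa5) under the Npm1+/+ label. A probe set listed under both Ndufs5 and its pseudogene Ndufs5-ps gave 0.61 and 0.99, so it had the same direction but cannot be assigned to either. Between genotype labels Ndufs5 was at 0.23 in total and 0.14 in polysome RNA, close to the median gene.

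**Figure D4:**
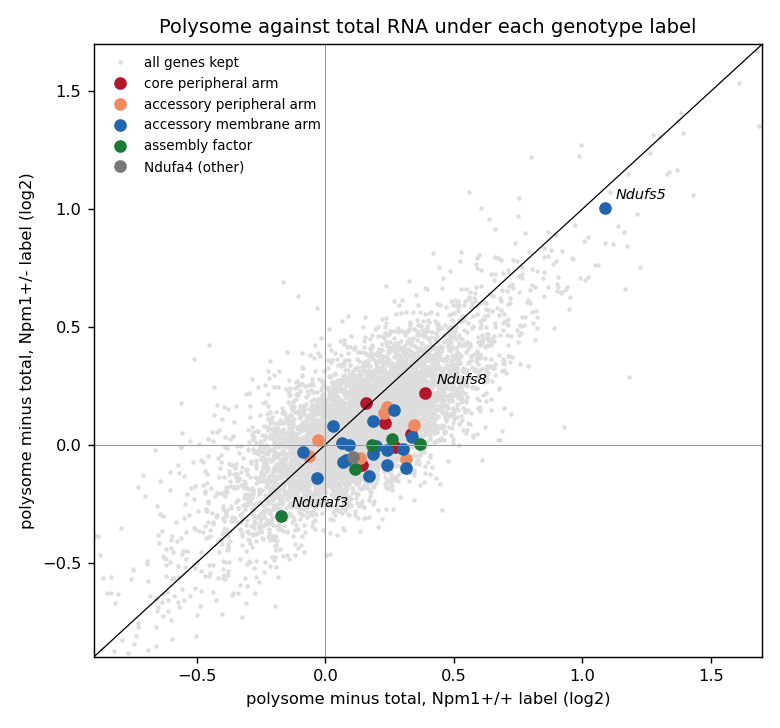
Polysome minus total RNA (log2) under the Npm1+/- label (y axis) against the same under the Npm1+/+ label (x axis), with complex I genes coloured by role over all genes kept in grey; genes beyond the axes are not drawn. The diagonal marks equal differences. Ndufs5 lies at 1.00 and 1.09, apart from the other complex I genes, and 33 of the 38 lie below the diagonal.

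Of the other members, Ndufs8 had the next largest polysome difference at the chosen probe sets under both labels, 0.22 and 0.39. Its other probe sets ranged from -0.16 to 0.07 under the Npm1+/- label and from -0.25 to 0.40 under the Npm1+/+ label. Ndufaf3, an assembly factor, lay lowest under both, at -0.30 and -0.17, with 8.39 against 8.69 under the Npm1+/- label and 8.22 against 8.39 under the Npm1+/+ label, polysome first. Some genes were near 0 under the Npm1+/- label and above the median gene under the Npm1+/+ label, among them Ndufb5 (0.03 and 0.34), Ndufa6 (0.08 and 0.34) and Ndufs3 (0.05 and 0.33). The second probe set of Ndufb5 did not show this, since it was near 0 under both labels (-0.04 and -0.00017). Probe sets of 1 gene often disagreed here: of the 19 genes with more than 1 probe set above the filter, 13 had mixed signs under the Npm1+/- label and 8 under the Npm1+/+ label. Markers of macrophages were higher in the same polysome libraries. Under the Npm1+/- label 11 of 14 were above 0 (background 65.1%), and under the Npm1+/+ label 13 of 14 (background 75.6%). Their summed linear level was 4178 in polysome against 1663 in total RNA under the Npm1+/- label, and 3196 against 1373 under the Npm1+/+ label. Of those above the filter, Csf1r was at -0.22 and 0.05, and Laptm5 at 0.04 and 0.14. Tyrobp, Adgre1, Cd68, Cd14 and Ptprc, which marks blood cells, were below the filter on all arrays. Fibroblast markers were also higher in polysome RNA, 9 of 10 above 0 under the Npm1+/- label and 10 of 10 under the Npm1+/+ label. Their summed level was 86404 against 72706 and 94822 against 86046, polysome first. The part of macrophages or fibroblasts in these complex I values was not tested.

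The difference between these differences, Npm1+/- label minus Npm1+/+ label, is called the association difference. It was below 0 for 33 of the 38 complex I genes (background 67.1%), with a median of -0.18 against -0.07 for all genes kept, and 6 genes were above the median gene. None was past 1.5-fold either way (backgrounds 0.167% higher and 0.139% lower), and 5 were lower past 0.32 on the log2 scale (background 5.06%). They were Ndufb9 (-0.41), Ndufa7 (-0.37), Ndufaf1 (-0.37), Ndufc1 (-0.33) and Ndufb3 (-0.32). Ndufs7, Ndufs3 and Ndufb8, the leading genes of the total RNA comparison, were at -0.28, -0.29 and -0.30. Assembly factors had a median of -0.21 and were all below 0. The 5 genes above 0 were Ndufc2 (0.05), Ndufv3 (0.05), Ndufb10 (0.05), Ndufs1 (0.02) and Ndufa12 (0.02). The median was below 0 in each role. It was also below 0 in respiratory complexes II, III, IV and V (-0.11, -0.12, -0.12 and -0.13). There 6 of 7, 12 of 13, 9 of 9 and 13 of 15 genes were below 0, in the same order. With arrays centred on their medians the complex I median was -0.098, after quantile normalisation -0.12 and after subtraction of the level trend -0.10, while that of all genes kept was 0.0049, -0.010 and -0.0037 in the same order. Of the 19 genes with more than 1 probe set above the filter, 14 had all of them below 0 and 5 had mixed signs. The second probe set of Ndufb9 gave -0.22. Because the total RNA arrays enter both this difference and the genotype comparison in total RNA, the higher total RNA values and the lower association values of these genes are not separate observations.

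Among complex I genes that the naming pattern leaves out, 6 of 7 on the array passed the filter. Of these 6, 5 were above 0 in total RNA (background 66.1%, median 0.35). Without the filter, 5 of 7 were above 0. Ndufab1, the mitochondrial acyl carrier protein and a subunit of the complex, read 11.71 under the Npm1+/- label and 11.27 under the Npm1+/+ label in total RNA, a difference of 0.44, and 0.23 in polysome RNA. Of the further assembly genes, Foxred1 (0.38), Tmem70 (0.36), Ecsit (0.33) and Timmdc1 (0.22) were above 0 in total RNA. Acad9, an assembly factor related to acyl-CoA dehydrogenases, was at -0.37 and -0.44. Tmem186 did not pass the filter and was at -0.11 in total RNA.

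The other respiratory complexes had smaller medians in total RNA, each with genes on both sides of 0. The medians were 0.12 for complex II (7 genes), 0.27 for complex III (13 genes), 0.21 for complex IV (9 genes) and 0.16 for complex V (15 genes), beside 0.35 for complex I and 0.19 for all genes kept. In polysome RNA the medians of complexes II to V were 0.16, 0.13, 0.17 and 0.04, beside 0.19 for complex I. No difference between complexes was tested. The lowest genes of each list, chosen after their values were seen, were the flavoprotein gene Sdha of complex II at -1.0 and -1.08 in total and polysome RNA, Uqcrh and Uqcr10 of complex III at -0.72 and -0.69 in total RNA, Cox7a2l, a factor of supercomplex assembly, at -0.42 and -0.77, and Atp5e of complex V at -0.91 and -1.05. The highest of complex II in total RNA was Sdhb (0.59), with Sdhd at 0.56. The highest of complexes III, IV and V were Ttc19 (0.54), Cox4i1 (0.38) and Atp5d (0.58).

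**Figure D5:**
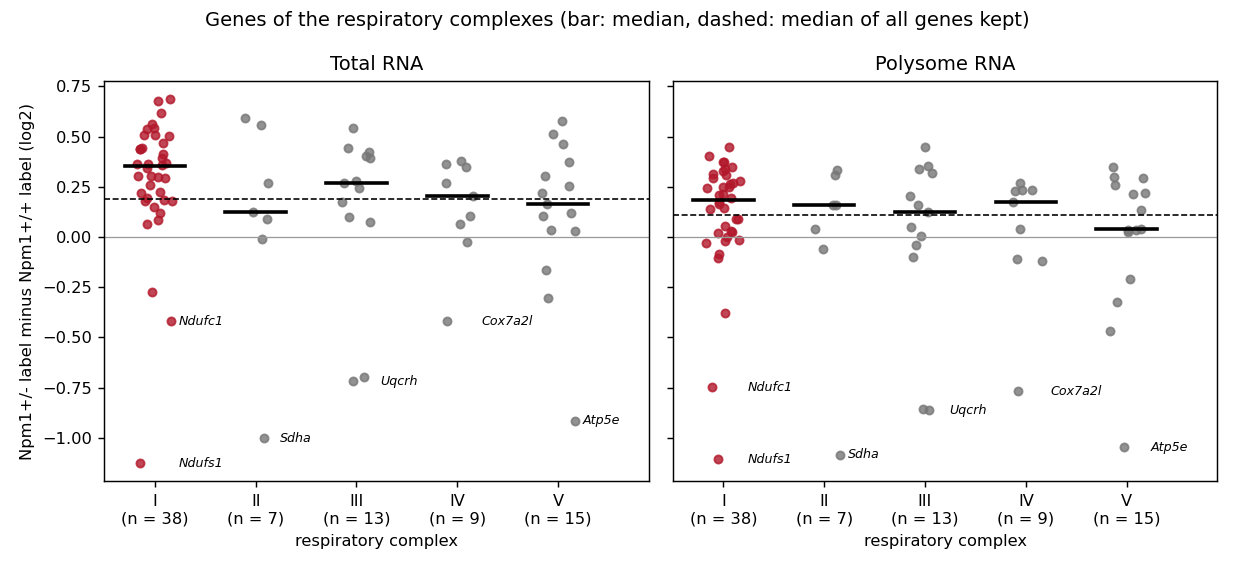
Difference between the libraries labelled Npm1+/- and Npm1+/+ (log2, y axis) for genes of each respiratory complex (x axis, number of genes in brackets) in total RNA (left) and polysome RNA (right). Each point is a gene, bars are medians and the dashed line is the median of all genes kept. Complex I has the highest median in total RNA, 0.35, and each complex holds at least 1 gene far below its median.

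Of 12 listed regulators of genes for mitochondrial proteins, 8 passed the filter. Of these, 6 were above 0 in total RNA (median 0.26), close to the background of 66.1%. The mitochondrial transcription factor gene Tfam read 9.12 under the Npm1+/- label and 8.05 under the Npm1+/+ label in total RNA, and 9.14 against 8.73 in polysome RNA. Gabpb1, a subunit of the ETS-family factor NRF-2, read 8.29 against 7.44 and 8.85 against 8.26. Both were past 1.5-fold higher in total RNA (background 7.42%), Gabpb1 also in polysome RNA (background 2.08%). The value of Gabpb1 in the total library labelled Npm1+/+ lay below the filter. Nrf1 (0.11 and 0.09), Yy1 (0.21 and 0.18) and Gabpa (0.31 and 0.18) differed by less than or about the SD between probe sets. Pprc1 was at -0.32 and -0.52, and Polrmt at -0.47 and -0.29. Ppargc1a, the coactivator known for driving mitochondrial biogenesis, did not pass the filter on any array.

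The promoters of 35 of the 38 genes are in the RefSeq table for GRCm38.p6, in 37 windows of 300 bases that run from 250 bases before to 50 after a transcription start. They were searched on both strands for letters bound by factors known from mitochondrial genes. The NRF1 core GCATGCGC was in 4 of 37 windows (10.8%), against 5.74% of 7597 windows of genes kept and 2.71% of all 32851 windows. The YY1 motif AAGATGGC was in 6 of 37 (16.2%), against 4.9% and 2.75%. The ETS motif CCGGAAGT was in 1 (2.70%), Ndufs3, against 8.83% and 3.89%, and CCAAT in 10 (27.0%), against 37.2% and 37.4%. The longer NRF1 palindrome, which contains the core on both strands, was in 2 (5.41%), Ndufaf4 and Ndufaf5, against 2.12% and 0.971%. Sites of the NRF1 core and of YY1, whose shares lay above both backgrounds, are printed below. They are given with 30 bases each on the strand of the gene and the match in capitals. ETS and CCAAT sites, whose shares lay below both backgrounds, are not printed. A link between motifs and the label differences was not tested, and Ndufs1 has no window.

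The NRF1 core lies upstream of the start in Ndufa6 (chr15:82354356-82354385, minus strand, difference in total RNA 0.18), Ndufa8 (chr2:36049328-36049357, minus strand, 0.44) and Ndufaf4 (chr4:24897961-24897990, plus strand, 0.30), and after it in Ndufaf5 (chr2:140170653-140170682, plus strand, 0.39). Ndufaf4 holds a further match just after its start, on the opposite strand, not printed.
Ndufa6: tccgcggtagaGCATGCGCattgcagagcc
Ndufa8: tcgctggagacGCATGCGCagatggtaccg
Ndufaf4: cagatgtctgcGCATGCGCctgtgcggaag
Ndufaf5: gtcccgttggcGCATGCGCctaatagaaac

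The YY1 motif lay after the transcription start in all 6 windows, its first base between positions 23 and 39 counted from 1 at the start. The motif contains the letters ATG, at which translation can start, and whether these matches lie at coding starts was not tested. The genes were Ndufs7 (chr10:80249462-80249491, plus strand), Ndufb8 (chr19:44555393-44555422, minus strand), Ndufs4 (chr13:114388045-114388074, minus strand), Ndufa9 (chr6:126849097-126849126, minus strand), Ndufa3 (chr7:3617384-3617413, plus strand) and Ndufc1 (chr3:51408915-51408944, minus strand).
Ndufs7: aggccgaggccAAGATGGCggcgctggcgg
Ndufb8: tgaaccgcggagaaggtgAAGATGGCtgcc
Ndufs4: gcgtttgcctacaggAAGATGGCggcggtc
Ndufa9: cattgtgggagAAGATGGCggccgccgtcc
Ndufa3: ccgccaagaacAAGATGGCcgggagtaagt
Ndufc1: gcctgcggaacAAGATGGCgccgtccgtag
In total RNA these genes differed between genotype labels by 0.69, 0.68, 0.50, 0.36, 0.09 and -0.42 in this order, so windows with the same letters belonged to genes at both ends of the range. A match describes the letters of a window and not binding.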

How the data were processed

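Gene expression was measured in 4 Affymetrix samples, 1 array per group, grouped by their titles. The authors deposited log2 values per probe set (22690 in all), produced by RMA, the usual background correction, between-array normalisation and probe summary for such arrays, using affy 1.56.0 in R 3.4.3, per the submitters' processing notes. Settings and a genome build are not given in the sources used here. Without detection calls or arrays in replicate, their number limits the precision.

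From these values, control probe sets (64), probe sets with several symbols (691) and 1555 others absent from the annotation were left out. Symbols were checked against RefSeq (0 changed), and differences were taken for 5 comparisons with Python 3.11.15 and pandas 2.3.3. The calculation was tested on simulated data. No statistical test was possible with 1 array per group. Members and gene lists were chosen with earlier results of these data known. Genes given with values on every array are the core subunits, the 2 members of each role with the largest differences in each comparison, every member past 1.5-fold, and members whose probe sets disagree in sign past 0.3 (none among those above the filter; Ndufb9 with 1 below it). Ndufb1, Ndufb3 and members outside this rule were named after their values were seen. Promoter sequences are from RefSeq (GRCm38.p6). Alternatives were other probe set choices, filters, scalings and thresholds.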

Additional observations from a re-analysis of the deposited data

How the results depend on the processing

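The median of the 38 complex I genes between genotype labels in total RNA was 0.23 with arrays centred on their medians over the genes kept. It was 0.20 after quantile normalisation and 0.16 after subtraction of the level trend. The count past 1.5-fold there, 4, became 1, 2 and 2 under these scalings, all of them lower, since no gene stayed past 1.5-fold higher, and Ndufc1 passed it lower at -0.59 (quantile) and -0.65 (level trend). It became 1 at 2-fold and 22 past 0.32 on the log2 scale. In polysome RNA the count of 2 became 1 at 2-fold and 10 past 0.32. For polysome minus total RNA under the Npm1+/- label the median of -0.0075 changed sign when probe sets of a gene were averaged (0.00064) and as a mean over members (0.022), and was -0.061, -0.064 and -0.080 with the 3 scalings (centred, quantile, level trend). Under the Npm1+/+ label it was 0.055, 0.068 and 0.059 with the scalings in the same order, and the count of 1 became 6 past 0.32. The association count of 0 became 5 past 0.32. The cause was not tested, except that thresholds change counts by construction. Of the medians that moved by less than 0.1, the association median of -0.18 became -0.098, -0.12 and -0.10 with the scalings, and the polysome genotype median of 0.19 became 0.14, 0.13 and 0.09, and 0.11 as a mean over members. With probe sets averaged, Ndufa5 (0.64) and Ndufb7 (0.64) passed 1.5-fold in total RNA. With a filter at the 75th percentile of all values, 33 complex I genes were kept and 21 were above the median gene in total RNA. No paired analysis was possible because each group has 1 array.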
